A study of Mus musculus with 21 samples.

Results

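The S100, annexin and Capg genes described here are S100a10, S100a4, S100a6, S100a11, S100a13, Anxa1, Anxa2, Anxa5 and Capg, 9 of the 16835 mouse genes listed in at least 1 of 3 deposited RNA-seq tables. They were taken by gene symbol, and they were chosen because S100a10 and Capg had the lowest p-values between methionine-restricted and control diets in MC38 tumors. For that reason the diet contrast in MC38, and the comparisons of MC38 control libraries with the other materials, are given as a description only. Tests are given for CD8+ T cells and BPD6 tumors, and 1 test over all libraries is given with and without MC38. The test of CD8+ T cells against BPD6 tumors on control diet shares its estimate of the spread with the MC38 control libraries. The mice were fed either control chow or a diet restricted in methionine (MR). RNA came from CD8+ T cells of the spleen (3 control and 3 MR libraries), from tumors of the MC38 colon carcinoma line (4 and 4) and from tumors of the BPD6 line, known as a melanoma line (4 and 3). The sample titles of the tumor libraries read tumor cells. Whether these were sorted cells or whole tumors is not known, and they are called tumors here. The labels give no strain, age or sex, no further allele or treatment, and are silent on whether each replicate was its own animal. The p-values therefore measure the spread between these libraries, which may in part be technical. All 9 genes were listed in all 3 tables and passed the filter on low counts in each.

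S100 proteins are small calcium sensors: calcium binding opens a pocket through which an S100 dimer grips a partner protein. Annexins bind acidic phospholipids of the plasma membrane when calcium rises, and S100 proteins tie pairs of them together. S100a10 has lost calcium binding and is held in a heterotetramer with Anxa2, where it anchors the plasminogen system and ion channels at the cell surface; S100a11 pairs in the same way with Anxa1. S100a4 binds non-muscle myosin and is known from motile, metastatic and memory cells, S100a6 binds the ubiquitin-ligase adaptor encoded by Cacybp, and S100a13 takes part in the release of growth factors that lack a signal peptide. Anxa1 is an anti-inflammatory ligand of formyl peptide receptors, Anxa5 binds phosphatidylserine, and Capg caps the growing ends of actin filaments. In lymphocytes several of these genes are known to be higher in antigen-experienced than in naive cells.

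The 5 S100 genes lie on chromosome 3 in the GRCm38.p6 annotation, all on the plus strand. S100a13 (90514233 to 90524581) is followed by S100a4 (90603770 to 90606045) after 79189 bp and by S100a6 (90612894 to 90614414) after another 6849 bp. S100a11 (93520496 to 93526288) and S100a10 (93555117 to 93564645) form a second group 2906082 bp further on, 28829 bp apart. Anxa5 is on the same chromosome (36448923 to 36475887, minus strand), Capg on chromosome 6 (72538282 to 72562983, plus), Anxa2 on chromosome 9 (69453683 to 69491792, plus) and Anxa1 on chromosome 19 (20373434 to 20390671, minus). S100a4 overlaps the predicted gene Gm42674 on its own strand, Anxa2 overlaps the antisense gene Gm16144, and Anxa1 overlaps the opposite-strand lincRNA 1500015L24Rik. The labels do not say whether the libraries kept strand, so reads from such overlaps cannot be told apart.

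RefSeq promoter windows (250 bases before to 50 bases after the start, GRCm38.p6) were matched for 8 of the 9 genes, all except S100a10. The windows of S100a4, the member that fell in CD8+ T cells, and of S100a11, Anxa1 and Anxa2, which belong to the partner pairs compared across libraries, are shown 5′ to 3′ on the gene's own strand. Capitals mark matches on either strand to the AP-1 motif TGANTCA, the GC box GGGCGG and the TATA box TATAAA.
S100a4, chr3:90603520-90603819 (+): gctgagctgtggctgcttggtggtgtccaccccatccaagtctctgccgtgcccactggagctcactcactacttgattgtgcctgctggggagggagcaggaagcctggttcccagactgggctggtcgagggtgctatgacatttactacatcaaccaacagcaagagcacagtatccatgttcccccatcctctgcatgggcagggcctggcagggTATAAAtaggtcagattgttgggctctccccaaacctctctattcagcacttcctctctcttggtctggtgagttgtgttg
S100a11, chr3:93520246-93520545 (+): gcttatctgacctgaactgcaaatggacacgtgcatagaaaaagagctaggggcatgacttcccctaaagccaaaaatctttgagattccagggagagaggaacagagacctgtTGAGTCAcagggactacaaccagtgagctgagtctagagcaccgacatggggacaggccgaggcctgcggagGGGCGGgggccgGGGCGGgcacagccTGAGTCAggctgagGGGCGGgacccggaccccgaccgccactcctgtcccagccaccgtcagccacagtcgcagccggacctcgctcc
Anxa1, chr19:20390622-20390921 (-): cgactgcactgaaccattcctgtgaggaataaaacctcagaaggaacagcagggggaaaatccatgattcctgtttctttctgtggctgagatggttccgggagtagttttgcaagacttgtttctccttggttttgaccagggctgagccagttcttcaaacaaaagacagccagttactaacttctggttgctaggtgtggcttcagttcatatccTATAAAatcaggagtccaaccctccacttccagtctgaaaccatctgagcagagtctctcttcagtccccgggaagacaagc
Anxa2, chr9:69453433-69453732 (+): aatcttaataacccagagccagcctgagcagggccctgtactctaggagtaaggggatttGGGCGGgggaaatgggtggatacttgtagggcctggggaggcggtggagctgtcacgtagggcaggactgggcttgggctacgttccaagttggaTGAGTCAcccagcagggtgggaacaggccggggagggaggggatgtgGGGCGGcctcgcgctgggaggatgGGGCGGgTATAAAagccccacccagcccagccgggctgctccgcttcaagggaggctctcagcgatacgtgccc
The TATA box stood 31 bases before the start in S100a4, 32 before it in Anxa1 and 17 before it in Anxa2, and 14.2% of 27025 promoter windows of the same length held it. The AP-1 letters occurred at 136 and 38 bases before the S100a11 start and at 95 bases before the Anxa2 start; 7.93% of all windows held them. The GC box occurred 3 times in each of these 2 windows and in 35.9% of all windows. No motif overlapped another. The windows of S100a6, S100a13, Anxa5 and Capg held none of these letters.

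Library totals ran from 15733774 to 24129562 estimated counts, and every member had at least 44 counts in each library. Levels are CPM, counts per 1000000 counts of the library after scaling by TMM, a factor that evens out library composition. In the CD8+ libraries Cd8a averaged 1501 CPM on control diet and 1361 CPM on MR diet, against 3.0 and 2.96 CPM for Cd4. The melanocyte markers Mlana, Tyr, Dct and Tyrp1 were not listed in the BPD6 table, where Mitf averaged 18.5 CPM and Pmel 1.14 CPM on control diet. The summed epithelial markers (Epcam, Krt8, Krt18, Cdh1 and Cldn4) reached 4.16 to 15.3 CPM in the MC38 control libraries and 4.29 to 50.2 CPM in the MR libraries. Both tumor types also held macrophage, fibroblast and endothelial transcripts, and in bulk RNA fewer cells of a type and less RNA per cell cannot be told apart.

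**Figure D1:**
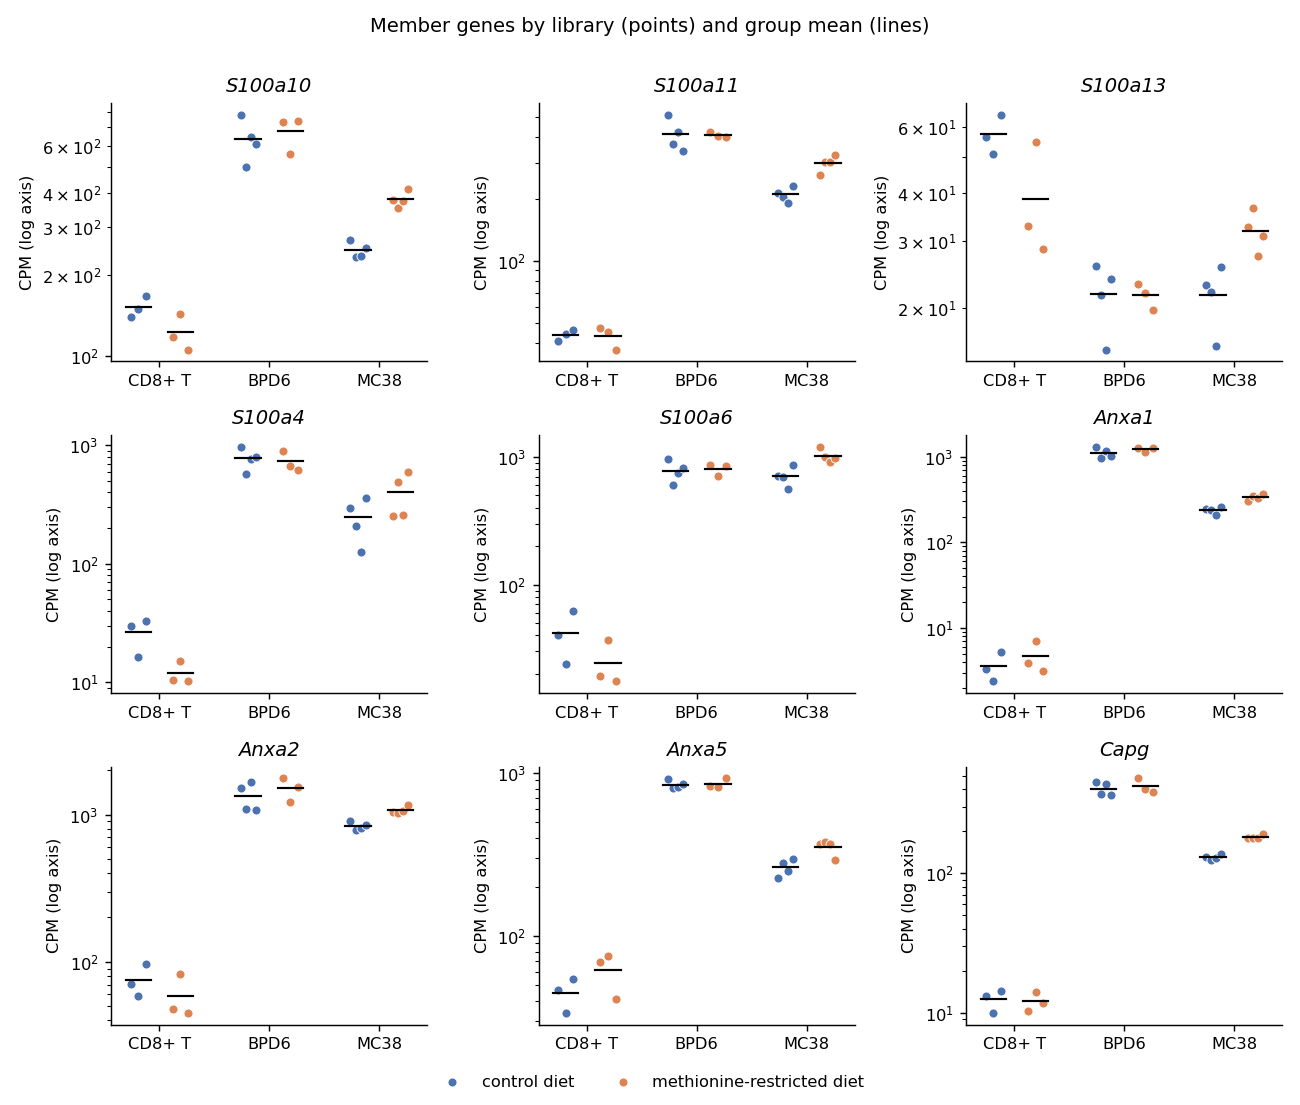
Level of the 9 genes in each library, in CPM on log axes, for CD8+ T cells, BPD6 tumors and MC38 tumors; each point is 1 library, by diet, and each line a group mean. In MC38 the MR libraries lie above the control libraries for most members, in BPD6 the diets overlap for all 9, and in CD8+ T cells the diets are apart for S100a4.

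In splenic CD8+ T cells the MR diet went with a lower level of S100a4, and with no other call among the 9 genes. S100a4 stood at 29.7, 16.4 and 33.2 CPM in the control libraries and at 10.4, 15.1 and 10.2 CPM in the MR libraries. Every MR library was below every control library, though the nearest values, 15.1 and 16.4 CPM, were close, and 10.9% of all genes were lower in this way. S100a4 fell by 1.15 ± 0.26 (SE) on the log2 scale, to 0.451 of the control level, with an adjusted p of 0.0381 in edgeR's quasi-likelihood test over 12348 genes. In the same comparison 0.818% of all genes were called lower and 0.591% higher, against 1 and 0 of the 9 members. The call was made on 3 libraries a group: it was lost on leaving out control library 1, control library 3, MR library 1 or MR library 3 (adjusted p from 0.0677 to 0.286), with the log2 difference between -1.06 and -0.95. limma-voom, which called 1.09% of its genes, gave -1.10 (adjusted p = 0.0702) and DESeq2, which called 5.0%, gave -1.15 (adjusted p = 0.00264). The authors' deposited table gave -1.15 with an adjusted p of 0.00350, and 2.49% of its genes were lower at that threshold of 0.05.

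The other S100 genes of the CD8+ cells overlapped between diets. S100a6, the neighbour of S100a4, was at 40.3, 23.8 and 61.7 CPM on control diet and at 19.3, 36.7 and 17.5 CPM on MR diet, a log2 difference of -0.77 ± 0.31 (adjusted p = 0.202, edgeR). S100a13 was at 56.4, 50.8 and 64.4 CPM against 32.8, 54.6 and 28.5 CPM, a log2 difference of -0.57 ± 0.21 (adjusted p = 0.174, edgeR). In both genes MR library 2 lay within the control range and the other MR libraries lay below it. S100a10, the member with the highest level per kb of transcript in these cells, was at 139.3, 149.1 and 166.5 CPM against 117.8, 143.1 and 105.5 CPM (log2 difference -0.31 ± 0.16, adjusted p = 0.317, edgeR). S100a11 was the flattest, at 41.0, 44.4 and 46.2 CPM against 47.2, 45.3 and 37.1 CPM, with a log2 difference of -0.02 ± 0.15 and a 95% interval of -0.35 to 0.30.

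The annexins and Capg gave no call in CD8+ cells. Anxa2, the partner of S100a10, was at 70.2, 58.7 and 96.5 CPM on control diet and at 47.6, 82.8 and 44.9 CPM on MR diet (log2 difference -0.36 ± 0.23, adjusted p = 0.435, edgeR). Anxa5 had the opposite sign, at 46.7, 33.6 and 54.1 CPM against 69.0, 74.9 and 41.1 CPM, with a log2 difference of 0.46 ± 0.22 and an adjusted p of 0.288 in edgeR. Its MR library 3 lay inside the control range. On leaving out 1 library, Anxa2 ran from -0.70 (without MR library 2) to -0.14 (without control library 3) and Anxa5 from 0.29 (without control library 2) to 0.68 (without MR library 3). Anxa1 was scarce, with control libraries between 2.39 and 5.24 CPM and MR libraries between 3.12 and 7.04 CPM, and its log2 difference of 0.37 ± 0.42 was smaller than its error. Capg was at 9.99 to 14.3 CPM against 10.3 to 14.2 CPM, a log2 difference of -0.05 ± 0.23.

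MR library 2 had the highest value of the 3 MR libraries for 8 of the 9 members, all but S100a11. The share of all genes that were highest in this library was not computed. Without it, edgeR called 1.18% of 12683 genes lower and 1.1% higher, and among the members 3 lower: S100a4 (log2 difference -1.36, adjusted p = 0.0173), S100a13 (-0.90, 0.0167) and S100a6 (-1.18, 0.0397). Leaving out any other library gave 0 or 1 member called. Because this library was singled out by its high member values, lower MR means without it are built in, and these calls are a description only. MR library 2 also had the highest sums of effector and memory T cell markers (800 CPM, against 680 and 519 CPM in the other MR libraries), of NK cell markers (155 CPM, against 81.9 and 127 CPM) and of B cell markers (101 CPM, against 58.7 and 60.3 CPM). Other lists went the other way. It had the lowest MR sums of T cell markers (4363 CPM, against 4518 and 4754 CPM) and of endothelial markers (111 CPM, against 129 and 124 CPM). Its neutrophil and fibroblast sums were also the lowest of the MR libraries.

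Among markers of other cell states and cell types in the CD8+ libraries, 2 passed edgeR's test, and the sums of some lists were apart between diets. Over all genes, 0.818% were called lower and 0.591% higher. Of 12 effector and memory genes, 10 had a negative log2 difference (median -0.59, against 0.01 over all genes), none past edgeR's test, and their summed level ran from 765 to 942 CPM on control diet and from 519 to 800 CPM on MR diet. All 4 NK cell markers were below 0 (median -0.71), with sums of 145 to 268 CPM and 81.9 to 155 CPM, and 1 of them, Klre1, passed the test (log2 difference -1.44, adjusted p = 0.0294, edgeR). All 5 B cell markers were below 0 (median -1.08, none past the test), with sums of 46.9 to 254 CPM and 58.7 to 101 CPM. Of 12 macrophage and monocyte markers 7 were below 0, with sums of 262 to 445 CPM and 202 to 392 CPM, and 1, Lyz2, passed the test (-1.30, adjusted p = 0.0456, edgeR). The sums did not overlap for 4 lists. Such gaps were common among single genes: 10.9% of all genes were lower on MR diet without overlap. Within classes of transcript length, 8.64% to 12.3% of genes were higher without overlap. Red cell genes summed to 28.3 to 60.9 CPM on control diet and 8.47 to 25.2 CPM on MR diet (3 of 3 tested below 0), dendritic cell markers to 32.8 to 52.6 and 22.5 to 31.6 CPM (3 of 4 below 0), T cell markers to 4817 to 5256 and 4363 to 4754 CPM (4 of 8 below 0), and endothelial markers to 91.0 to 97.4 and 111 to 129 CPM (2 of 2 above 0). None of the genes in these 4 lists passed the test. The endothelial sum was mostly Pecam1, with means of 92.5 CPM on control diet and 118 CPM on MR diet. Cdh5 was at 0.447 and 0.277 CPM, Vwf at 2.14 and 2.66 CPM, and Kdr, Tek and Emcn were not listed. Of the T cell markers, Lck had means of 2123 and 1602 CPM, while Cd3e, Cd3g, Cd8b1 and Cd5 had higher means on MR diet. Of the listed marker genes only Dcn, of fibroblasts, was at 0 in every library of a diet, on MR diet. The control libraries with more S100a4, 29.7 and 33.2 CPM, had B cell marker sums of 162 and 254 CPM, and the control library with 16.4 CPM had 46.9 CPM. Their NK cell sums had the same order, at 183, 268 and 145 CPM. The effector and memory sums (765, 942 and 813 CPM) did not, nor did the macrophage and red cell sums. The part of any of these cells in the difference of S100a4 was not tested.

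In BPD6 tumors no member differed between diets beyond the spread of the libraries, and the groups overlapped for all 9, against 1.5% of all genes higher and 1.9% lower without overlap. edgeR called 0 of the 9 members, as did DESeq2 and limma-voom, and 0 members had an unadjusted p under 0.05. The background was 0.0% of 13978 genes in edgeR, where 1.85% had an unadjusted p under 0.05, 0.00718% in DESeq2 and 0.0% in limma-voom. Among the S100 genes, S100a10 was at 779.3, 497.8, 642.9 and 609.7 CPM on control diet and at 730.5, 560.1 and 739.2 CPM on MR diet, a log2 difference of 0.10 ± 0.17. S100a4 was at 973.9, 575.5, 769.6 and 790.9 CPM against 902.6, 665.8 and 621.1 CPM, a log2 difference of -0.09 ± 0.20. Control library 1 was the highest and control library 2 the lowest BPD6 library for both. S100a6 ran from 608 to 961 CPM on control diet and from 707 to 863 CPM on MR diet, S100a11 from 342 to 511 CPM and from 398 to 422 CPM, and S100a13 from 15.5 to 25.8 CPM and from 19.7 to 23.1 CPM.

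Anxa2 had the most positive difference in BPD6. It was at 1521.9, 1086.4, 1668.3 and 1076.4 CPM on control diet and at 1763.6, 1224.6 and 1533.6 CPM on MR diet, a log2 difference of 0.17 ± 0.20. Anxa1 was at 1310.3, 965.3, 1157.5 and 1020.5 CPM against 1262.3, 1121.9 and 1250.8 CPM (0.12 ± 0.12). Anxa5 was the steadiest gene, between 807 and 912 CPM on control diet and between 814 and 926 CPM on MR diet (0.02 ± 0.09). Capg was at 450.4, 367.4, 439.3 and 361.4 CPM against 479.0, 399.7 and 381.9 CPM (0.05 ± 0.12). The 95% intervals of the 9 log2 differences reached from -0.55 (S100a4) to 0.63 (Anxa2), so that folds from 0.685 to 1.55 lay within them. The macrophage marker sums of BPD6 ran from 1479 to 1974 CPM on control diet and from 1586 to 2185 CPM on MR diet.

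Whether the diet difference itself differed between CD8+ T cells and BPD6 tumors was tested as an interaction over the 12486 genes tested of those listed in both tables, a test added after the data had been seen. S100a4 differed by -1.05 ± 0.35 on the log2 scale (unadjusted p = 0.0101, adjusted p = 0.238, edgeR), and its 95% interval ran from -1.81 to -0.29. edgeR and DESeq2 each called 0 of the 9 members, 1 of which, S100a4, had an unadjusted p under 0.05; the background was 0.0561% of genes called in edgeR, 13% at an unadjusted p under 0.05, and 2.31% called in DESeq2. The call of S100a4 in CD8+ cells and its absence in BPD6 are therefore not shown to be different diet effects.

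**Figure D2:**
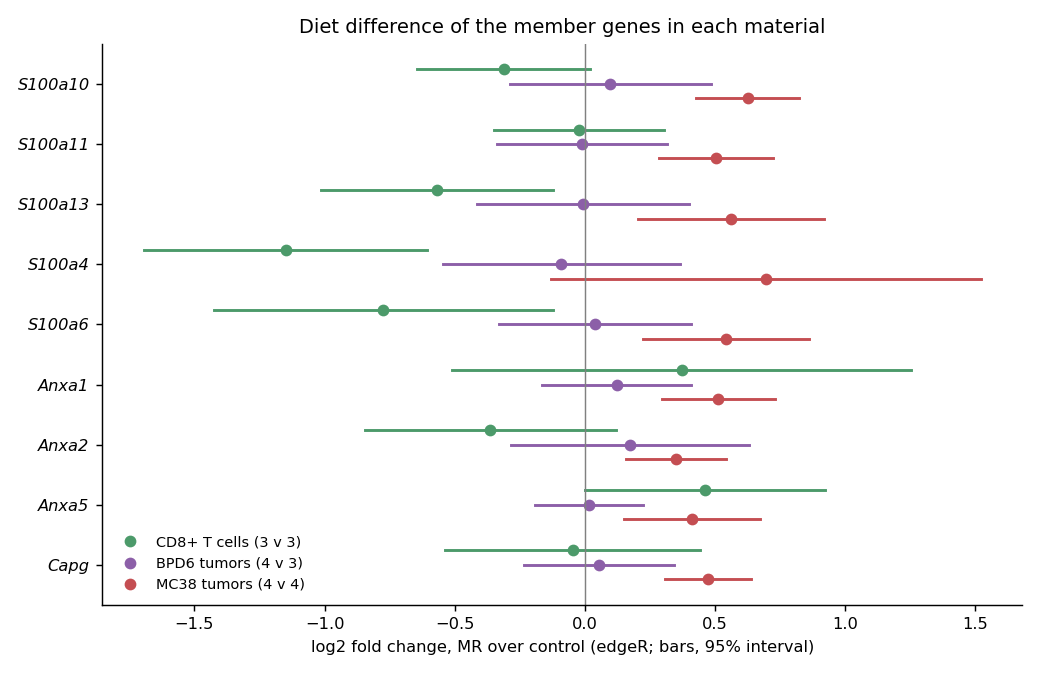
Log2 difference of MR from control diet for each of the 9 genes in CD8+ T cells, BPD6 tumors and MC38 tumors; points are edgeR estimates and lines 95% intervals. S100a4 lies lowest in CD8+ T cells (-1.15), all BPD6 intervals cross 0, and all MC38 points lie between 0.35 and 0.70, in the contrast from which the genes were chosen.

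In MC38 tumors, the contrast that chose the genes, all 9 members had higher means on MR diet. S100a10 was at 268.1, 233.1, 233.8 and 251.2 CPM in the control libraries and at 378.6, 353.6, 373.2 and 415.8 CPM in the MR libraries, a log2 difference of 0.63 ± 0.09 (1.54-fold). Anxa2, its partner, was at 910.5, 786.0, 815.9 and 845.1 CPM against 1038.1, 1019.4, 1061.7 and 1156.6 CPM (0.35 ± 0.09). Both genes were apart in every library, and the fold of Anxa2, 1.27, was the smallest of the 9. S100a11 was at 214.1, 204.4, 191.5 and 230.9 CPM against 262.2, 300.2, 301.1 and 327.6 CPM (0.50 ± 0.10), and its partner Anxa1 at 245.0, 236.8, 207.2 and 255.6 CPM against 305.1, 343.4, 330.6 and 368.8 CPM (0.51 ± 0.10). Capg was the tightest, at 131.2, 124.3, 127.7 and 137.9 CPM against 178.0, 178.0, 177.8 and 190.2 CPM (0.47 ± 0.07).

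S100a6 had the highest level per kb of transcript of the 9 in MC38 and was at 705.6, 697.5, 559.2 and 863.8 CPM against 1207.7, 994.8, 918.8 and 991.3 CPM (0.54 ± 0.14). S100a13 had the lowest level per kb and was at 15.8 to 25.6 CPM on control diet and 27.3 to 36.5 CPM on MR diet (0.56 ± 0.16). S100a4 varied most between libraries of 1 diet, at 294.3, 209.8, 126.1 and 357.1 CPM against 250.8, 490.9, 257.9 and 599.5 CPM (0.70 ± 0.37), its groups overlapped, and the difference was 0.43 without MR library 4. Anxa5 was at 225.5, 281.6, 251.6 and 294.7 CPM against 368.0, 374.6, 364.2 and 294.0 CPM (0.41 ± 0.12), overlapping through MR library 4 alone. The median log2 difference of the members was 0.51, against 0.02 over all 14034 genes, and 53.6% of all genes were above 0. The MR libraries were all above the control libraries for 7 members and for 4.05% of all genes. edgeR called 0 members and 0.0% of genes, with 8 members and 14.1% of genes at an unadjusted p under 0.05. limma-voom called 0 members and 0.0% of genes, and DESeq2 called 8, with 1.39% of its genes called higher. In the authors' deposited table the adjusted p was under 0.05 for 8 members, all but S100a4 (0.281), and for 1.32% of genes in the upward direction. Because the genes were chosen from this contrast, these counts describe the choice.

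Markers of other cells were mostly above 0 in the MC38 diet contrast, where 53.6% of all genes were. None of the markers passed edgeR's test. All 12 macrophage and monocyte markers were above 0 (median log2 difference 0.54), with sums of 706 to 1357 CPM on control diet and 862 to 2272 CPM on MR diet. All 8 T cell markers were above 0 (median 1.22), with sums of 16.4 to 30 CPM and 16.8 to 81.4 CPM, and 6 of 8 fibroblast markers were (median 0.19), with sums of 1014 to 1743 CPM and 1025 to 2342 CPM. The 3 tested fat cell genes had a median of 3.12, with sums of 0.588 to 5.91 CPM and 1.18 to 58.6 CPM, and the 4 red cell genes were all above 0 (median 0.58), with sums of 7.16 to 40 CPM and 26.4 to 45.2 CPM. The sums of each of these lists overlapped between diets. The part of these cells in the differences was not tested.

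Transcript length moved with the MC38 diet difference. Genes with transcripts under 1000 nt had a median log2 difference of 0.27 and 82.9% of them lay above 0, those from 1000 to under 2000 nt had a median of 0.15, those from 2000 to under 4000 nt 0.01, and those of 4000 nt and over -0.14 with 27.0% above 0. The 5 S100 transcripts were 498 to 731 nt long, and those of the annexins and of Capg 1388 to 1731 nt in the MC38 table. After a correction for length in each library, all 9 members stayed above 0, and their median dropped from 0.51 to 0.37, against 0.07 over all genes. The corrected log2 differences were 0.42 ± 0.12 (SE) for S100a10, 0.25 ± 0.15 for S100a11, 0.35 ± 0.165 for S100a13, 0.45 ± 0.41 for S100a4 and 0.33 ± 0.14 for S100a6. They were 0.47 ± 0.10 for Anxa1, 0.27 ± 0.10 for Anxa2, 0.37 ± 0.11 for Anxa5 and 0.39 ± 0.09 for Capg. In CD8+ cells the length classes had medians between -0.03 and 0.02, and S100a4 was at -1.14 after the correction (adjusted p = 0.0223, edgeR). In BPD6 the classes ran from 0.03 to -0.05.

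**Figure D3:**
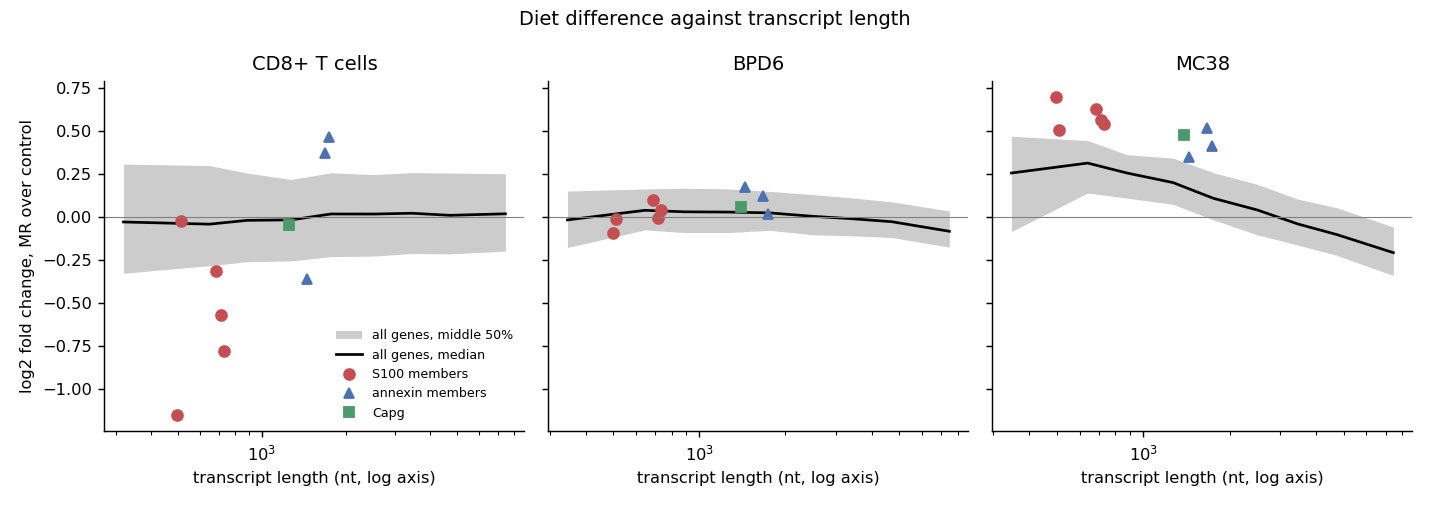
Log2 difference of MR from control diet against transcript length in nt (log axis) in the 3 materials; the line is the median of all genes in bins of length, the band the middle 50% of them, and the points the 9 members. In MC38 the median falls with length from 0.27 under 1000 nt to -0.14 from 4000 nt, and the members lie above it at their own lengths.

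On control diet the levels of the genes differed widely between materials. The MC38 control libraries took part in the contrast that chose the genes, so the MC38 values are described with no test, and CD8+ cells and BPD6 tumors are tested. The fit takes a shared estimate of the spread from all 3 control groups. The p-values of CD8+ cells against BPD6 therefore rest in part on the MC38 control libraries, and no fit without them was made. Material and sequencing run cannot be told apart in this comparison, and only 7683 of the 12425 genes listed in all 3 tables are counted on the same transcript, Capg not among them. In a joint edgeR fit over 12347 genes, all 9 members had a lower estimate in MC38 than in BPD6. Anxa1 was 5.69-fold lower (log2 difference -2.51 ± 0.17), Anxa5 3.89-fold, S100a4 3.80-fold, Capg 3.75-fold, S100a10 3.1-fold, S100a11 2.36-fold and Anxa2 1.92-fold. S100a6 (-0.42 ± 0.24) and S100a13 (-0.28 ± 0.18) were closer, and their libraries overlapped between the tumors.

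CD8+ T cells had less of 8 of the 9 members than BPD6 tumors. Against BPD6 8 members were lower and 1 higher, where 42.0% of all genes were lower and 40.2% higher. The estimates against MC38, with no test, had the same signs. Anxa1 differed most, 279-fold lower than in BPD6 (log2 difference -8.13 ± 0.26, adjusted p = 4.23e-11, edgeR) and 49.1-fold lower than in MC38. Capg was 29.3-fold and 7.81-fold lower, S100a4 26.6-fold and 7.01-fold, and S100a6 17.0-fold and 12.7-fold. S100a13 was the exception, 2.93-fold higher in CD8+ cells than in BPD6 (log2 difference 1.55 ± 0.19, adjusted p = 6.03e-06, edgeR) and 3.54-fold higher than in MC38. S100a10 was 3.76-fold lower than in BPD6 (-1.91 ± 0.14, adjusted p = 5.9e-08, edgeR), and its log2 difference from MC38 was -0.28 ± 0.14. These contrasts share their control libraries.

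The order of the genes per length also differed between materials. In CPM per kb of transcript, CD8+ cells were led by S100a10 at 265 ± 21.1 (SD, n = 3), above S100a11 at 103 ± 5.56 without overlap. S100a11, S100a13 (95.8 ± 10.1), S100a6 (68.4 ± 30.1), S100a4 (63.4 ± 20.6) and Anxa2 (62.1 ± 15.0) each overlapped the next, and Anxa5 (31.0 ± 6.79), Capg (12 ± 2.0) and Anxa1 (2.6 ± 1.0) followed without overlap. BPD6 was led by S100a4 at 1687 ± 350 CPM per kb (n = 4), S100a6 at 1159 ± 216, Anxa2 at 999 ± 225, S100a10 at 997 ± 180, S100a11 at 869 ± 154 and Anxa1 at 718 ± 97.0, each overlapping the next. Anxa5 (529 ± 28.5), Capg (312 ± 35.2) and S100a13 (32.7 ± 6.61) were lower without overlap. MC38 was led by S100a6 at 865 ± 154 CPM per kb (n = 4), above Anxa2 (519 ± 36.4) without overlap. S100a4 (444 ± 182), S100a11 (368 ± 30.2) and S100a10 (322 ± 24) each overlapped the gene before, and Anxa5 (136 ± 15.6), Anxa1 (126 ± 11.6), Capg (84.0 ± 3.89) and S100a13 (27.0 ± 5.25) closed the order, of which Anxa5 and Anxa1 overlapped. S100a13 was thus the lowest member per kb in both tumors and the third highest in CD8+ cells, and Anxa1 the lowest in CD8+ cells.

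**Figure D4:**
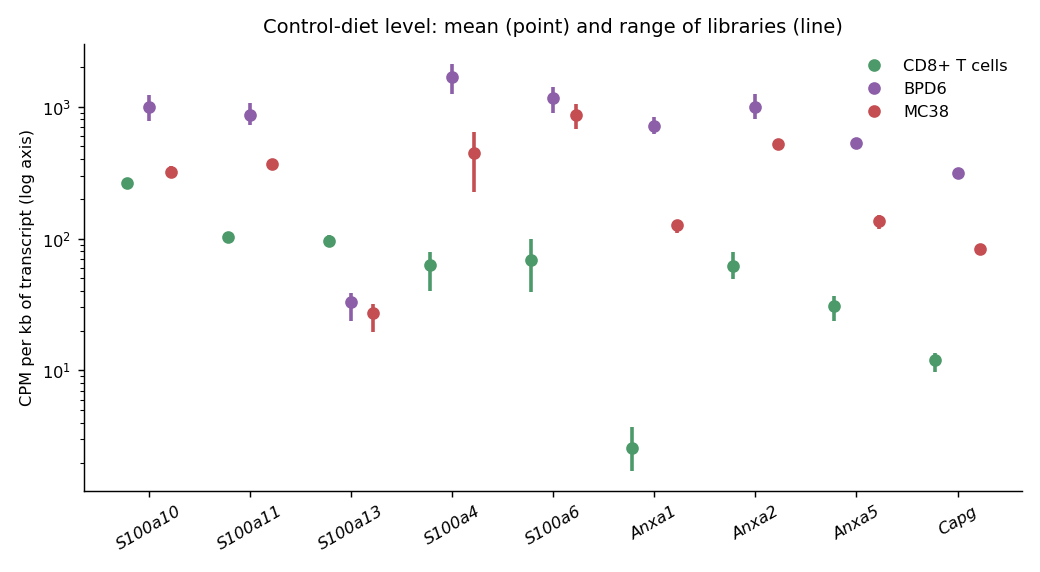
Level of the 9 genes on control diet in CPM per kb of transcript (log axis) in the 3 materials, jointly scaled; points are means of 3 or 4 libraries and lines their range. BPD6 is highest for every member except S100a13, for which CD8+ T cells are highest at 95.8, and Anxa1 in CD8+ T cells is the lowest point at 2.6.

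Pairs of genes were compared from library to library once the mean of each material and diet was removed. Because MC38 libraries took part in choosing the genes, each test was repeated on the 13 CD8+ and BPD6 libraries, an alternative chosen after the data had been seen. For S100a10 and Anxa2, subunits of the same complex, Pearson's r over the 21 libraries was 0.78 and Spearman's rho 0.80 (permutation within groups, adjusted p = 0.00567 and 0.00351 over 3 pairs; unadjusted 0.00196 and 0.00117). The r was 0.89 within CD8+ libraries, 0.76 within BPD6 and 0.96 within MC38, and 0.80 without the 2 libraries farthest out in S100a10. On the 13 libraries r was 0.78 and rho 0.68 (permutation adjusted p = 0.0118 and 0.0373). For S100a4 and S100a6, neighbours on chromosome 3, r was 0.60 and rho 0.58 (permutation adjusted p = 0.00567 and 0.0104; unadjusted 0.00378 and 0.0104), with 0.95, 0.82 and 0.44 within the 3 materials and 0.65 without the 2 farthest. On the 13 libraries r was 0.89 and rho 0.90 (permutation adjusted p = 0.00525 and 0.00465). For S100a11 and Anxa1 r was 0.55 and rho 0.72 (permutation adjusted p = 0.0169 and 0.0063; unadjusted 0.0169 and 0.0042), with 0.52, 0.89 and 0.95 within the materials, 0.55 without the 2 farthest, and a permutation adjusted p of 0.0639 without BPD6 control library 1. On the 13 libraries r was 0.51 and rho 0.59, and neither passed the threshold (permutation adjusted p = 0.0854 and 0.0913). The libraries share depth scaling and cell makeup, and r was above 0 for all 36 pairs among the members, from 0.25 to 0.90 with a median of 0.58. S100a4 had a higher r with Anxa1 (0.64), Capg (0.62) and S100a13 (0.61) than with S100a6. S100a11 had a higher r with S100a10 (0.65) than with Anxa1. The tests of these 2 pairs therefore do not show a tie particular to the pair. Among 10554 genes, Anxa2 ranked 3 by its r with S100a10, S100a6 ranked 204 with S100a4, and Anxa1 ranked 328 with S100a11. The median r of all genes was 0.02, -0.01 and 0.01. These ranks and the r of the 36 pairs rest on all 21 libraries, MC38 among them, and are given as a description.

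**Figure D5:**
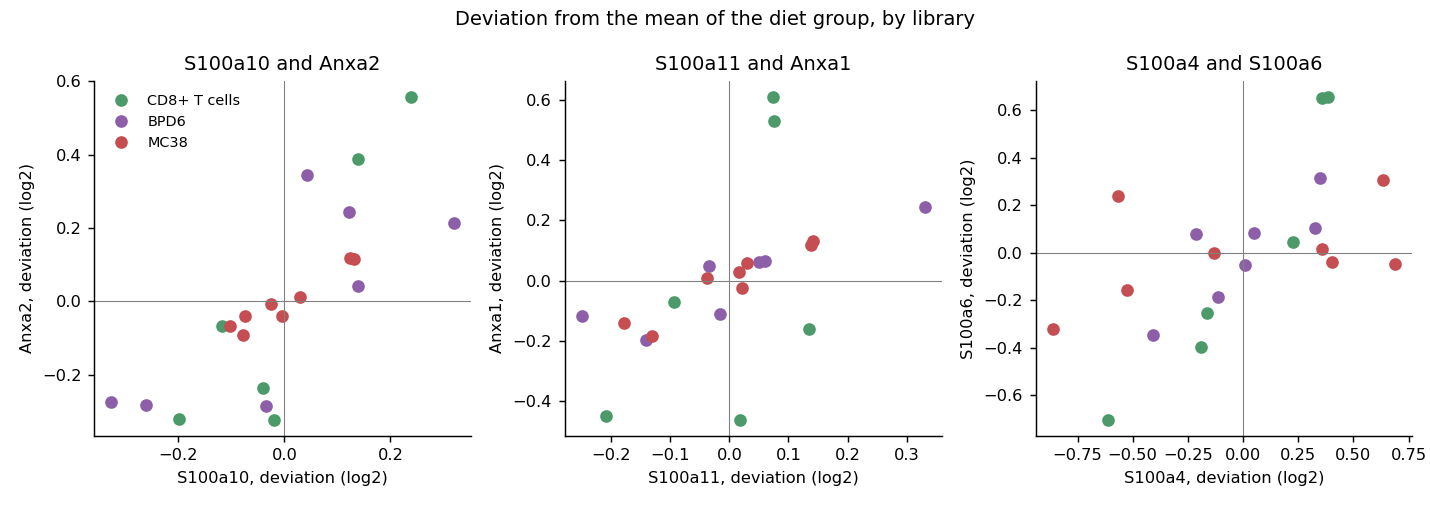
Deviation of log2 CPM from the mean of the material and diet group for S100a10 and Anxa2, S100a11 and Anxa1, and S100a4 and S100a6; each point is 1 of 21 libraries, colored by material. The points rise from lower left to upper right in each panel, with r of 0.78, 0.55 and 0.60.

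By the same measure, over 21 libraries and 10555 genes compared, the genes outside the 9 most like S100a10 were Ostf1 (r = 0.85), Bola1 (0.82), Cab39l (0.77), Tst (0.76) and Tasp1 (0.76). Ostf1 encodes an SH3 protein of osteoclasts, and it had r of 0.96, 0.89 and 0.60 within CD8+, BPD6 and MC38 libraries; Bola1 had 0.82, 0.99 and -0.01. For Capg they were Glrx (0.87), the cytosolic glutaredoxin, Mpnd (0.87), Cd40 (0.87), the receptor of antigen-presenting cells, D17H6S56E-5 (0.86) and Tdrd7 (0.85). These are values over few libraries, given as a description.

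Of the related genes, 1 passed edgeR's test in CD8+ cells and 0 in BPD6 tumors. Over all genes, 0.818% were called lower and 0.591% higher in CD8+ cells, and 0.0% were called in BPD6. Cacybp, whose product binds S100a6, was at 102 ± 22.2 CPM (SD, n = 3) on control diet and fell to 60.0 ± 3.85 CPM on MR diet, a log2 difference of -0.77 ± 0.16 with an adjusted p of 0.0336. Among the 13 tested partners and receptors 9 were below 0 and 4 above, with Cacybp past the test. The S100 list held the other S100 genes and S100pbp, which is not itself an S100 gene. Of this list 3 of 5 tested were above 0 and 2 below in CD8+ cells. Of the other annexins 2 of 6 were above 0, of the gelsolin and capping genes 4 of 9, and of 15 further actin and membrane genes of motile cells 10. The share over all genes was 50.4%. In the S100, annexin, gelsolin and motile-cell lists 0 genes passed the test. S100a9, a neutrophil and monocyte alarmin, was at 1.53 ± 1.18 CPM on control diet and 4.54 ± 1.76 CPM on MR diet (log2 difference 1.59 ± 0.54, adjusted p = 0.142, edgeR). Anxa7 was at 75.1 ± 3.14 and 59.0 ± 4.42 CPM (-0.35, adjusted p = 0.205, edgeR) and Anxa6 at 353 ± 6.59 and 427 ± 11.2 CPM (0.28, adjusted p = 0.345, edgeR). The actin-binding genes Tmsb4x, which sequesters actin monomers, and Lcp1, which bundles filaments, had log2 differences of -0.45 and -0.30 (adjusted p = 0.350 and 0.357, edgeR), Vill and Svil of the gelsolin family -1.40 and 0.32, and S100a14 -1.12.

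Among the motile-cell genes in BPD6, Lgals3, the galectin of macrophages, had the lowest p (480 ± 98.2 CPM on control diet and 655 ± 132 CPM on MR diet, log2 difference 0.45 ± 0.19). Among the partners and receptors it was Ahnak, the large scaffold that binds the complex of S100a10 and Anxa2 (1087 ± 191 and 1324 ± 384 CPM, 0.28 ± 0.21). In CD8+ cells Ahnak had the opposite sign, at 674 and 446 CPM (-0.60 ± 0.19, adjusted p = 0.124, edgeR). Of the lists in BPD6, 6 of 8 genes of the S100 list, 5 of 7 other annexins and 4 of 9 gelsolin and capping genes were above 0. So were 10 of 14 partners and receptors and 9 of 15 motile-cell genes. The share over all genes was 48.4%. Fpr1, a receptor of Anxa1, was at 1.5 ± 0.75 and 2.41 ± 1.58 CPM. Differences for S100a7a, S100b, Anxa8, Anxa4, Svil, Flii and Lsp1 ran from -0.15 to 0.83 on the log2 scale, all with an adjusted p of 0.9997 in edgeR. In the MC38 diet contrast, given as a description, 14 of the 15 motile-cell genes were above 0 (median 0.40), against 53.6% of all genes (median 0.02). Their sums were 13080 to 13880 CPM on control diet and 15970 to 17210 CPM on MR diet. Also above 0 were 6 of 7 genes of the S100 list, 4 of 7 other annexins, 4 of 10 gelsolin and capping genes and 11 of 14 partners and receptors. Of all genes with transcripts under 1000 nt, 82.9% were above 0 in that contrast, and 27.0% of those of 4000 nt and over. The part of transcript length in these lists was not tested.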

How the data were processed

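Messenger RNA was purified on poly-T beads and sequenced on Illumina instruments, per the labels' protocols. The authors deposited estimated counts per gene and library, in multiples of 0.5, for 13509 (CD8+), 15184 (BPD6) and 15507 (MC38) genes of GRCm38, per the file headers and the submitters' processing notes; the aligner and the counting tool are not stated there. The deposited tables also hold the authors' log2 fold change, its standard error (unit score here) and p-values. A second set of 21 per-library columns was not used. Counts were rounded and tested with edgeR 4.0.16 (R 4.3.3; filterByExpr, TMM, quasi-likelihood test, Benjamini-Hochberg over all genes of a table, threshold 0.05); DESeq2 1.42.0, limma-voom (limma 3.58.1), other scalings, no filter, a lowess correction for transcript length (span 0.3; lengths matched for 88.9 to 89.4% of the genes listed), a replicate block and leave-one-out fits were alternatives. Deviations used log2(CPM + 0.5) and 100000 permutations. Library totals limit precision through counting error only; replicate spread is larger. Scripts were tested on simulated data. No 2 libraries of a group agreed within sampling noise (lowest chi-square per degree of freedom 12.8).

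The members and lists were chosen with earlier results of these data known. The genes named beside the 9 are, in each list, those past the test in CD8+ or BPD6 or the 2 of lowest p, and the 5 most like S100a10 and Capg. BPD6 MR columns carry the numbers 1, 2 and 4, kept here, and the labels 1 to 3; they were used as libraries of the group.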

Additional observations from a re-analysis of the deposited data

Results flagged for a closer look

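Of 27 groups of 4 libraries examined gene by gene, 2 in MC38 tumors had a library far from the other 3; chance alone gives such a gap in about 1 of 20 groups. Anxa5 was at 294.0 CPM in MR library 4, while the other MR libraries lay between 364.2 and 374.6 CPM, so that 0.871 of the group's range was this gap. Capg was at 190.2 CPM in the same library, above the 177.8 to 178.0 CPM of the others, with a gap of 0.981 of the range.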

How the results depend on the processing

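The count of members called in CD8+ cells, 1, was 0 with limma-voom and 0 with the replicate block, and ran from 0 to 3 on leaving out libraries; the cause was not tested. Whether equal replicate numbers mark paired libraries is not known. The correlations of deviations (0.08, -0.25 and -0.22 in CD8+ and -0.36 to 0.41 in MC38) rest on 3 or 4 libraries a group and cannot decide it. Under the replicate block S100a4 was at -1.12 in CD8+ cells (adjusted p = 0.0944, edgeR) and the MC38 median stayed at 0.51. No paired analysis was possible for BPD6 because its MR columns and labels carry different numbers. The MC38 median of 0.51 was 0.37 with the length correction and 0.45 to 0.55 on leaving out libraries. The r of S100a11 with Anxa1 ran from 0.44 to 0.65 on leaving out single libraries, with 1 lost call, and was 0.51 without the MC38 libraries, where the call was lost with fewer libraries. Differences near 0 changed sign: in CD8+ cells S100a11 (0.05) and Capg (0.02) with library totals, in BPD6 S100a11 (0.00491) and S100a13 (0.01) with limma-voom. On leaving out libraries the ranges crossing 0 were, in BPD6, Anxa5 -0.04 to 0.06, Capg -0.05 to 0.12, S100a11 -0.08 to 0.12, S100a13 -0.14 to 0.09, S100a4 -0.27 to 0.04 and S100a6 -0.06 to 0.16; in CD8+, Anxa1 -0.04 to 0.72, Capg -0.18 to 0.06 and S100a11 -0.09 to 0.08; and in the difference between CD8+ and BPD6, Anxa1 -0.15 to 0.57 and S100a11 -0.12 to 0.07. The count of members called between CD8+ and BPD6 on control diet stayed at 9 on leaving out libraries, and a fit restricted to shared transcripts gave no value for Capg.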
